A study of Mus musculus with 21 samples.

Results

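Cyclin G2, the D-type cyclins and the genes that act with them in the G1 phase of the cell cycle were followed in hypoxic and cobalt-treated B16-F10 cells, a mouse melanoma line derived from C57BL/6J mice. The list held 9 genes: Ccng2, Ccnd1, Ccnd2, Ccnd3, Cdk4, Cdk6, Cdkn1b, Cdkn2a and Rb1. Members were the probe sets of the Affymetrix Murine Genome U74Av2 array that its annotation assigns to 1 of these genes and to no other. There were 12 such probe sets for 8 of the genes, of 10833 single-gene probe sets for 8251 genes in all. Cdk6 had none in the annotation used here and was not analysed here.

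The series held 21 arrays in 9 groups of the same line, with no genetic change between them. Hypoxia meant 24 h at 1% oxygen. It was produced in a Billups-Rothenberg chamber (the chamber set, 3 hypoxia arrays and 2 controls) or in an incubator with regulated oxygen flow (experiments 1 and 2, each with 3 hypoxia arrays and 2 controls). Experiment 3 held 2 controls, 2 arrays of cells given 100 µM cobalt chloride (CoCl2) for 24 h and 2 of cells given 200 µM CoCl2 for 24 h. CoCl2 stabilises hypoxia-inducible factors and was used as a chemical mimic of hypoxia. Controls were grown at 21% oxygen, with no duration stated. Neither the chamber arrays nor 2 of the controls have an experiment number in their titles, and on that basis these 2 were taken as the chamber controls. The chamber was used in 1 set only, so that device and set cannot be told apart. B16-F10 is 1 tumour line. The titles call the arrays of a group biological replicates, without saying how the cultures were separated.

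In G1, D-type cyclins bind CDK4 or CDK6, and the active kinase phosphorylates the retinoblastoma protein, which releases E2F factors and opens the way to S phase. Inhibitors of the INK4 family, encoded by Cdkn2a and its relatives, act on CDK4 and CDK6, whereas p27, encoded by Cdkn1b, binds and restrains cyclin-CDK complexes. Cyclin G2 is an unconventional cyclin that slows the cycle, is abundant in cells that have stopped dividing, and is a known target of FOXO factors.

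All values are log2 RMA signals of 1 probe set on 1 array, and differences are treated minus own controls in log2 units with standard errors. Levels of different probe sets were not set against each other. A probe set counts as changed at an adjusted p under 0.05 in limma over all 10833 probe sets. The number of arrays limits the precision. Standard errors rest on 1 spread per probe set shared by all groups. The CoCl2 replicates differed more from each other (SD of the difference 0.40 at 100 µM and 0.33 at 200 µM) than those of any other group (0.13 to 0.26). Standard errors of CoCl2 differences can therefore be too small. In extracts of whole cultures, fewer cells in a given state and less RNA per cell cannot be told apart. The Actb 3′ minus 5′ signal, a measure of RNA quality that grows as RNA is degraded, lay between 0.15 and 0.50 on the 15 arrays of the chamber set and experiments 1 and 2. The controls of experiment 3 had 1.41 and 1.62, the 100 µM arrays 2.36 and 2.16 and the 200 µM arrays 1.47 and 0.50. The mean signal of the 7 measured melanocyte markers (of 9 listed) was 9.16 to 9.48 in the hypoxia arrays and 9.37 to 9.53 in their controls. Within it, Mitf rose by 0.89 ± 0.08 in the mean hypoxia effect and 2 markers fell, Gpr143 (-0.95 ± 0.08) and Pmel (-0.24 ± 0.07). It was 6.57 to 8.03 in the 4 CoCl2 arrays, against 9.33 and 9.52 in the controls of experiment 3, and all 7 fell with CoCl2. The mean of 6 measured leukocyte markers (7 listed) was 4.74 to 5.14 in the CoCl2 arrays, against 4.18 and 4.21 in the controls of experiment 3. In the hypoxia arrays it was 4.29 to 4.77, against 4.14 to 4.34 in their controls. Of these markers 2 rose in each treatment: Cd68 (0.84 ± 0.13 in hypoxia and 3.24 ± 0.21 with CoCl2), Csf1r in hypoxia (0.19 ± 0.07) and Cd3e with CoCl2 (0.39 ± 0.11). With CoCl2 3 of 4 epithelial markers (median difference 0.35) and 2 of 5 fibroblast markers (median 0.26) also rose, and in hypoxia 1 and 0 did. None of 4 endothelial markers passed in either. Over all 8251 genes, 11.9% were called higher and 18.8% lower in the mean hypoxia effect (median 0.01). In the mean CoCl2 effect 22.0% were called higher and 22.7% lower (median 0.12). Cd68, a lysosomal macrophage marker, reached 9.24 in the CoCl2 arrays, while the leukocyte marker Ptprc stayed between 2.85 and 3.47 on all 21 arrays. The part of RNA quality and of these markers in the results below was not tested, beyond a fit with the Actb value as a covariate.

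Ccng2, the gene of cyclin G2, rose in all 5 treated groups and was the member with the largest change in each. In the chamber set its probe set gave 8.39, 8.21 and 8.62 on the hypoxia arrays, against 5.25 and 5.28 on the controls. In experiment 1 it gave 8.21, 8.48 and 8.22 in hypoxia, against 5.59 and 5.36 in the controls. In experiment 2 it gave 8.54, 8.68 and 8.77 in hypoxia, against 5.02 and 5.14 in the controls. No hypoxia array came near a control array. In experiment 3 it gave 5.96 and 6.08 in the controls, 8.73 and 9.23 with 100 µM CoCl2 and 8.51 and 8.10 with 200 µM. Both CoCl2 pairs lay above the controls, and the 200 µM arrays lay below the 100 µM arrays without overlap.

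The mean hypoxia effect on Ccng2 over the 3 sets was 3.18 ± 0.09 log2 units, a 9.09-fold rise (adjusted p = 2.14e-16). It was the fourth highest of 8251 genes, each represented by its probe set with the highest mean. The effects in the single sets were 3.14 ± 0.15 with the chamber, 2.83 ± 0.15 in experiment 1 and 3.58 ± 0.15 in experiment 2. The effect in experiment 1 was 0.75 ± 0.22 below that in experiment 2, which did not pass the test over all probe sets (adjusted p = 0.236). CoCl2 gave rises of 2.96 ± 0.17 at 100 µM (7.76-fold, adjusted p = 2.75e-11) and 2.28 ± 0.17 at 200 µM (4.86-fold, adjusted p = 8.23e-10). Ccng2 ranked 10 of 8251 genes from the top at 100 µM and 34 at 200 µM. The higher dose gave 0.67 ± 0.17 less than the lower one (adjusted p = 0.00935). That step did not pass without array 2 at 100 µM (adjusted p = 0.101), without array 2 at 200 µM (0.176), with array weights (0.241), with experiment 3 alone (0.175) or with the Actb covariate (-0.42 log2 units, 0.629); the other alternatives gave adjusted p-values down to 0.00241. The mean CoCl2 effect was 0.56 ± 0.17 below the mean hypoxia effect (adjusted p = 0.0217), a call lost with replicate number as a block (0.101) and without any 1 of 4 arrays of experiment 3 (adjusted p from 0.0536 to 0.116).

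Ordered by group mean, Ccng2 was highest at 100 µM CoCl2, followed by hypoxia in experiment 2, hypoxia in the chamber set, 200 µM CoCl2 and hypoxia in experiment 1. The ranges of neighbours in this order overlapped. All 5 treated groups lay above the controls: the lowest treated array, with 200 µM CoCl2, had 8.10, and the highest control, of experiment 3, had 6.08. The controls followed in the order experiment 3, experiment 1, chamber set and experiment 2, and no neighbours among them overlapped. The 8 control arrays thus spanned 1.06 log2 units between sets.

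**Figure D1:**
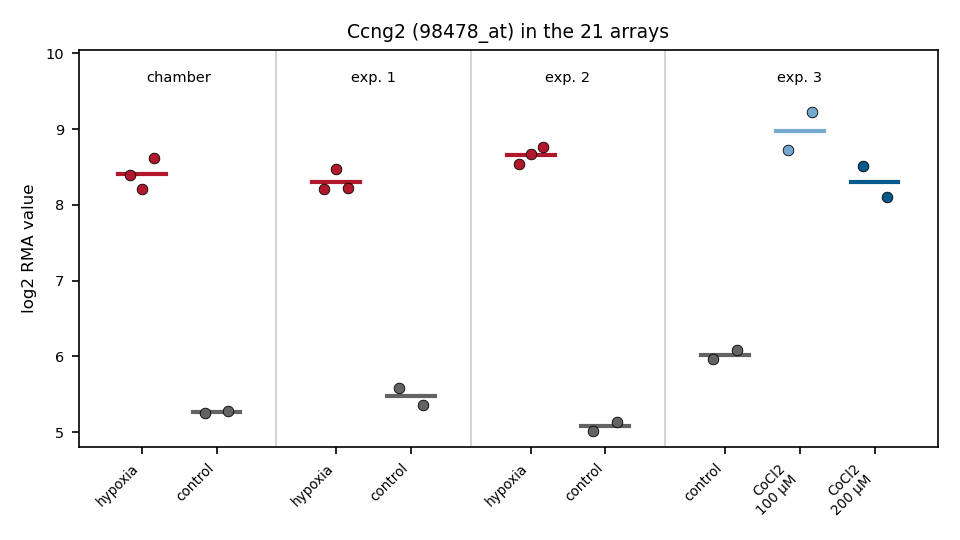
Ccng2 signal (log2 RMA value, vertical axis) on each of the 21 arrays, by set and group; points are arrays and short lines are group means. All 13 treated arrays lie above 8, and the 8 control arrays lie between 5.02 and 6.08.

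The 300 bases around the annotated start of Ccng2 (250 before and 50 after it) are shown because this gene had the largest change. They come from RefSeq, build GRCm38.p6, at chr5:93267323-93267622 on the plus strand, 5′ to 3′. Capitals mark a match to the core motif of hypoxia-inducible factors on the minus strand (GCGTG, read here as CACGC, bases 202 to 206) and a match to a FOXO motif (CAAAACAA, bases 235 to 242).
Ccng2: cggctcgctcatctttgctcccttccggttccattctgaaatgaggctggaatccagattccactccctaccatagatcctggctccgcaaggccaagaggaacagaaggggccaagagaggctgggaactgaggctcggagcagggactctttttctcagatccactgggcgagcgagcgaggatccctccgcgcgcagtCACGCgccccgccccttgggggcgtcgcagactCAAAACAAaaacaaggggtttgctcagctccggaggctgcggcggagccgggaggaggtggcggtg
The motifs searched on both strands were ACGTG or GCGTG for hypoxia-inducible factors, GTAAACA or CAAAACAA for FOXO factors, CACGTG (which contains ACGTG on both strands) and TTTCCCGC, TTTCGCGC, TTTGCCGC or TTTGGCGC for E2F. Of 32851 promoter windows of this length, 43.8% held a hypoxia-inducible factor core and 32.4% held GCGTG. A FOXO motif stood in 6.06% and CAAAACAA in 2.51%. The motifs were chosen with the members' sequences at hand, and a match is a description of letters, not a binding site. RefSeq windows were found for 5 of the 8 measured genes (7 windows), and 3 are printed; Ccnd1, Ccnd2 and Rb1 had no window in the table used here.

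The 5 genes (lead probe sets) whose signal followed Ccng2 most closely over the 21 arrays, by Pearson's r among 8250 other genes, were Ero1a (0.990), Rnf19a (0.985), Bhlhe40 (0.980), Kdelr3 (0.976) and Pgm1 (0.972). Their mean hypoxia effects lay between 1.55 and 2.44 log2 units and their mean CoCl2 effects between 1.83 and 2.39, against 3.18 and 2.62 for Ccng2. The arrays share groups and controls, so r describes a common pattern and carries no test.

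The D-type cyclins, which activate CDK4 and CDK6 in response to growth signals, gave different calls by gene and by set. The lead Ccnd1 probe set fell in experiment 1 and at both CoCl2 doses, Ccnd2 and Ccnd3 rose in the chamber set, and Ccnd3 fell at both CoCl2 doses. Ccnd1 is represented by 2 probe sets, of which only the lead one passed in any comparison.

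The lead Ccnd1 probe set gave 7.87, 8.25 and 7.95 in chamber hypoxia, against 7.93 and 7.97 in the chamber controls. In experiment 1 it gave 6.80, 6.65 and 6.46 in hypoxia, against 7.41 and 7.65 in the controls. In experiment 2 it gave 7.23, 7.35 and 7.29 in hypoxia, against 7.68 and 7.63 in the controls. Chamber hypoxia overlapped its controls, whereas both incubator experiments lay below theirs. In experiment 3 Ccnd1 gave 7.96 and 7.88 in the controls, 6.26 and 5.79 with 100 µM CoCl2 and 6.26 and 5.91 with 200 µM. The CoCl2 arrays were the lowest of all 21, and the doses overlapped.

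By these values Ccnd1 fell by 0.89 ± 0.15 log2 units in experiment 1 (1.86-fold lower, adjusted p = 0.00018). The difference in experiment 2 was -0.36 ± 0.15 (adjusted p = 0.128) and that in the chamber set 0.08 ± 0.15 (adjusted p = 0.745, 95% interval -0.23 to 0.38). The mean over the 3 sets was a fall of 0.39 ± 0.08 (adjusted p = 0.00102). The difference between the chamber effect and the mean incubator effect was 0.70 ± 0.18 and did not pass (adjusted p = 0.0591), but it passed under 6 of 10 alternatives (adjusted p from 0.00189 to 0.0432) and without any 1 of 5 arrays (0.0172 to 0.0461). With CoCl2 Ccnd1 fell by 1.89 ± 0.16 at 100 µM (3.71-fold, adjusted p = 1.19e-08) and fell by 1.84 ± 0.16 at 200 µM (3.57-fold, adjusted p = 1.08e-08). The mean CoCl2 effect lay 1.47 ± 0.16 below the mean hypoxia effect (adjusted p = 8.83e-07).

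The second Ccnd1 probe set passed the test in no comparison, apart from array weights (chamber set, 0.25, adjusted p = 0.0254, and chamber minus incubator, 0.42, 0.0210) and 3 settings in experiment 1 (adjusted p down to 0.0413). Its arrays ranged from 5.82 to 6.95 over the series, and the mean difference was -0.18 ± 0.12 for CoCl2 (adjusted p = 0.201) and -0.04 ± 0.07 for hypoxia (adjusted p = 0.781). Its 4 CoCl2 arrays also lay below both controls of experiment 3. For CoCl2 the lead probe set therefore showed 1.68 log2 units more than the second one, and which of them follows the Ccnd1 transcript more closely was not tested.

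The 5 genes whose signal followed the lead Ccnd1 probe set most closely over the 21 arrays were Crtap (r = 0.949), Aurkb (0.913), Nek6 (0.912), Mlph (0.907) and St3gal5 (0.903). Their mean CoCl2 effects ranged from -2.31 to -1.07 log2 units, against -1.86 for Ccnd1.

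Ccnd2 gave 8.66, 9.36 and 8.93 in chamber hypoxia, against 8.16 and 8.29 in the chamber controls. The arrays of experiment 1 read 7.76, 7.91 and 8.06 in hypoxia, against 7.94 and 8.27 in the controls. Those of experiment 2 read 7.85, 7.88 and 7.85 in hypoxia, against 7.74 and 7.70 in the controls. The chamber hypoxia arrays stood highest of the series, and in experiment 1 the groups overlapped. In experiment 3 Ccnd2 gave 7.38 and 7.14 in the controls, 7.23 and 7.10 with 100 µM CoCl2 and 6.85 and 6.78 with 200 µM. The controls themselves ran over 1.15 log2 units between sets, those of experiment 3 being the lowest.

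Ccnd2 rose by 0.76 ± 0.15 log2 units in chamber hypoxia (1.70-fold, adjusted p = 0.00113). The differences in experiments 1 and 2 were -0.20 ± 0.15 and 0.14 ± 0.15 (adjusted p = 0.474 and 0.702), and the mean over the 3 sets was 0.23 ± 0.09 (adjusted p = 0.0526). That mean passed under 7 of 10 alternatives (adjusted p from 0.0335 to 0.0488) and without any 1 of 5 arrays (0.00971 to 0.0454), so its call hangs on the setting. The chamber effect exceeded the mean incubator effect by 0.79 ± 0.19 (adjusted p = 0.0405). That difference did not pass without any 1 of 12 of the 21 arrays: both chamber controls, chamber hypoxia arrays 2 and 3, control 2 and hypoxia arrays 1 and 2 of experiment 1, or any array of experiment 2. It then ranged from 0.60 to 0.85 with adjusted p-values up to 0.254, and it was 0.85 with replicate number as a block (adjusted p = 0.146). The fall of 0.44 ± 0.17 at 200 µM CoCl2 (adjusted p = 0.0447) also lost its call without any 1 of 12 arrays, with adjusted p-values up to 0.281 without control 1 of experiment 3, and under 5 of 10 alternatives, with adjusted p-values from 0.0333 to 0.182 over all 10. At 100 µM the difference was -0.09 ± 0.17 (adjusted p = 0.677). The mean CoCl2 effect lay 0.50 below the mean hypoxia effect (adjusted p = 0.0397), a call lost with quantile normalisation (0.123), array weights (0.136), replicate number as a block (0.0537) and without any 1 of 10 arrays (0.0501 to 0.267).

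Ccnd3 gave 9.44, 9.47 and 9.56 in chamber hypoxia, against 8.96 and 9.06 in the chamber controls. The arrays of experiment 1 read 8.32, 8.30 and 8.19 in hypoxia, against 8.54 and 8.63 in the controls. Those of experiment 2 read 9.03, 9.13 and 9.03 in hypoxia, against 8.91 and 8.60 in the controls. Hypoxia arrays lay above their controls in the chamber set and experiment 2 and below them in experiment 1, without overlap in any set. In experiment 3 Ccnd3 gave 8.78 and 8.84 in the controls, 8.19 and 8.34 with 100 µM CoCl2 and 7.84 and 8.34 with 200 µM. All 4 CoCl2 arrays lay below both controls, and the doses overlapped.

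Ccnd3 rose by 0.48 ± 0.13 log2 units in chamber hypoxia (adjusted p = 0.00965). The call was lost without chamber control 1 (0.43, adjusted p = 0.109), without chamber control 2 (0.53, adjusted p = 0.0507) and with replicate number as a block (0.44, adjusted p = 0.0760); the other alternatives gave adjusted p-values down to 2.86e-05. The differences of -0.32 ± 0.13 in experiment 1 and 0.30 ± 0.13 in experiment 2 did not pass (adjusted p = 0.0996 and 0.140), nor did the difference between them, -0.62 ± 0.18 (adjusted p = 0.235). The first passed under 3 of 10 alternatives (adjusted p down to 0.0206), the second under 2 (down to 0.0348) and their difference with array weights. With CoCl2 Ccnd3 fell by 0.55 ± 0.14 at 100 µM (1.46-fold, adjusted p = 0.00435) and fell by 0.72 ± 0.14 at 200 µM (1.65-fold, adjusted p = 0.00028). With the Actb covariate the 100 µM difference was -0.24 (adjusted p = 0.372) and with experiment 3 alone it kept its size with an adjusted p of 0.109, while over the other alternatives adjusted p-values went down to 0.0028. The mean CoCl2 effect lay 0.79 ± 0.14 below the mean hypoxia effect (adjusted p = 0.00028).

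**Figure D2:**
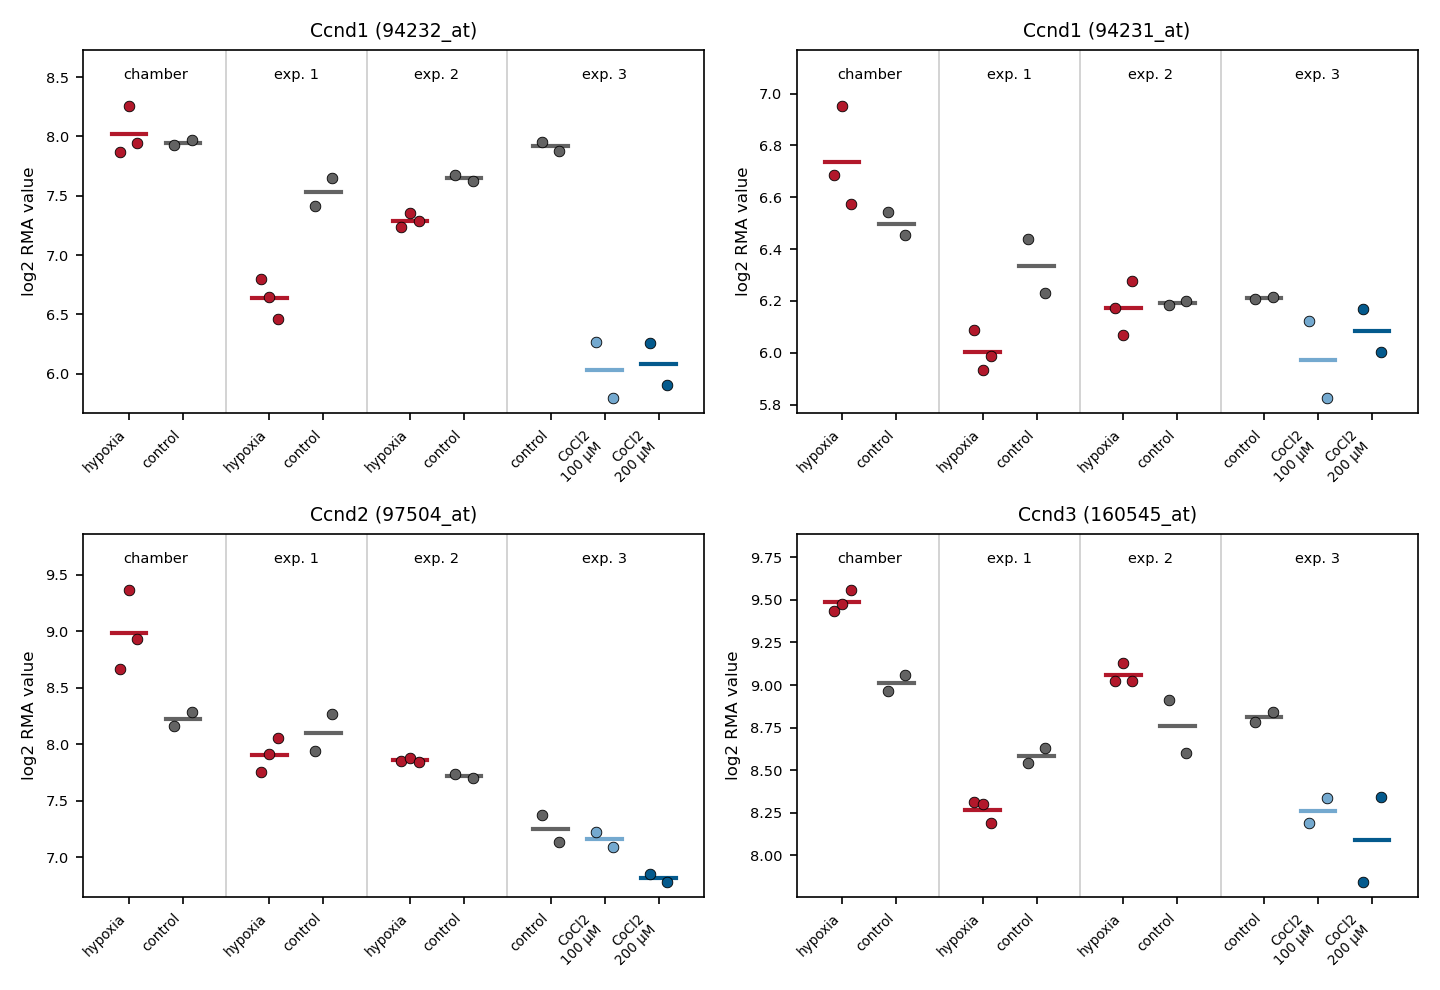
Signal of the 4 D-cyclin probe sets (log2 RMA value, vertical axes on separate scales that do not start at 0) on each array, by set and group; points are arrays and short lines are group means. The lead Ccnd1 probe set, at upper left, lies between 5.79 and 6.26 in the 4 CoCl2 arrays, and Ccnd2 reaches its highest value, 9.36, in chamber hypoxia.

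Cdk4, the catalytic partner of the D cyclins, was lower in all 5 treated groups by its lead probe set. It gave 9.87, 9.78 and 9.92 in chamber hypoxia, against 10.18 and 10.17 in the chamber controls. In experiment 1 it gave 9.75, 9.75 and 9.64 in hypoxia, against 10.15 and 10.21 in the controls. In experiment 2 it gave 9.72, 9.89 and 9.96 in hypoxia, against 10.46 and 10.29 in the controls. No hypoxia array overlapped its controls, and the 8 control arrays spanned 0.31 log2 units. In experiment 3 Cdk4 gave 10.34 and 10.33 in the controls, 9.64 and 9.57 with 100 µM CoCl2 and 8.56 and 8.80 with 200 µM. These 3 groups did not overlap, and each step up in dose was lower than the one before.

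Cdk4 fell by 0.43 ± 0.06 log2 units in the mean hypoxia effect (1.35-fold lower, adjusted p = 7.09e-06). The single sets gave -0.32 ± 0.10 with the chamber, -0.46 ± 0.10 in experiment 1 and -0.52 ± 0.10 in experiment 2 (adjusted p = 0.0324, 0.00311 and 0.00138). The chamber call was lost with quantile normalisation (-0.19, adjusted p = 0.217, the highest over 10 alternatives, with 0.00062 the lowest), and without either chamber control or hypoxia array 1 or 2 of that set (-0.33 to -0.28, adjusted p from 0.0695 to 0.161). With replicate number as a block the chamber and experiment 1 calls were lost (adjusted p = 0.118 and 0.0758). With CoCl2 Cdk4 fell by 0.74 ± 0.11 at 100 µM (1.66-fold, adjusted p = 3.75e-05) and fell by 1.66 ± 0.11 at 200 µM (3.15-fold, adjusted p = 2.49e-10). The step between the doses was -0.92 ± 0.11 (adjusted p = 1.58e-05), and the mean CoCl2 effect lay 0.76 ± 0.11 below the mean hypoxia effect (adjusted p = 4.72e-05). Both of these kept their calls under each alternative and each left-out array.

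The second Cdk4 probe set gave 7.56 and 7.32 in the controls of experiment 3, 5.97 and 6.96 with 100 µM CoCl2 and 6.18 and 6.33 with 200 µM. It fell by 0.97 ± 0.20 at 100 µM and fell by 1.19 ± 0.20 at 200 µM (adjusted p = 0.0009 and 7.99e-05). Its arrays at 100 µM lay far apart, and that difference was -0.48 without array 1 and -1.47 without array 2. With the Actb covariate it was -0.70 (adjusted p = 0.0878) and with experiment 3 alone its adjusted p was 0.0543; over the other alternatives adjusted p-values went down to 0.00066. In hypoxia the mean difference was -0.28 ± 0.11 (adjusted p = 0.0570), with the same sign in each set, and it passed under 4 of 9 alternatives (adjusted p down to 0.00164). Its step between the doses, -0.21 ± 0.20, did not pass (adjusted p = 0.579) except without array 1 at 100 µM (-0.71, 0.00362).

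The window around the Cdk4 start is shown because it holds CACGTG in 4 copies, a motif found in 7.15% of windows and known as the E-box bound by MYC. It lies at chr10:127063285-127063584 of GRCm38.p6 on the plus strand and is credited to RefSeq. Capitals mark the 4 copies, which begin at bases 79, 133, 153 and 240.
Cdk4: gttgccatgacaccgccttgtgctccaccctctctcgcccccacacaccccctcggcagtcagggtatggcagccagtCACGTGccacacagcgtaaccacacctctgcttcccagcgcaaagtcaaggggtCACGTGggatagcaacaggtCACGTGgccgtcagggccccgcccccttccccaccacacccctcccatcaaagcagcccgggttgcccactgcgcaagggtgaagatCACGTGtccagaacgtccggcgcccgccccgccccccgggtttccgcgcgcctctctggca
Each copy contains ACGTG on both strands, so these letters do not separate an E-box from a hypoxia-inducible factor core.

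The CDK inhibitor gene Cdkn1b, which encodes p27, was higher in hypoxia. The mean signal of its lead probe set lay at the 30.6 percentile of all single-gene probe sets. That probe set gave 5.17, 5.06 and 5.19 in chamber hypoxia, against 4.29 and 4.28 in the chamber controls. Hypoxia in experiment 1 gave 4.88, 4.71 and 4.63, against 3.998 and 4.39 in the controls. Hypoxia in experiment 2 gave 4.09, 4.34 and 4.43, against 3.92 and 3.997 in the controls. On this probe set hypoxia arrays lay above their controls in every set, by the most in the chamber set. In experiment 3 Cdkn1b gave 4.03 and 4.14 in the controls, 5.12 and 4.25 with 100 µM CoCl2 and 4.13 and 4.20 with 200 µM. Array 1 at 100 µM stood apart from the other CoCl2 arrays.

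Cdkn1b rose by 0.58 ± 0.10 log2 units in the mean hypoxia effect (1.49-fold, adjusted p = 0.00011), by 0.86 ± 0.17 in the chamber set (1.81-fold, adjusted p = 0.00124) and by 0.55 ± 0.17 in experiment 1 (adjusted p = 0.0348). In experiment 2 the difference was 0.33 ± 0.17 (adjusted p = 0.278). The experiment 1 call was lost without its control 1 (0.35, adjusted p = 0.401), hypoxia array 1 (0.48, 0.113) or hypoxia array 2 (0.57, 0.0642) and with replicate number as a block (0.60, 0.112). At 100 µM CoCl2 Cdkn1b was 0.60 ± 0.19 higher (adjusted p = 0.0202), but without array 1 at that dose the difference was 0.17 (adjusted p = 0.548), and without control 1 or 2 of experiment 3 the adjusted p was 0.122 or 0.0509. Of 9 alternatives 4 lost that call, with adjusted p-values from 0.0162 to 0.181 over all 9. At 200 µM the difference was 0.08 ± 0.19 (adjusted p = 0.750, 95% interval -0.32 to 0.48). The second probe set, whose mean signal lay at the 3.21 percentile of all single-gene probe sets, rose by 0.42 ± 0.10 in the mean hypoxia effect (adjusted p = 0.00297; 0.0535 with replicate number as a block). Its order of the sets was the opposite one, with 0.28 for the chamber, 0.48 in experiment 1 and 0.50 in experiment 2 (adjusted p = 0.288, 0.0709 and 0.0703). It differed by 0.06 ± 0.17 for CoCl2 (adjusted p = 0.788).

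The window around the Cdkn1b start, at chr6:134920151-134920450 of GRCm38.p6 on the plus strand (RefSeq), is shown beside that of Ccng2 because both genes rose in hypoxia. Capitals mark its single match to the searched motifs, GCGTG on the minus strand (read here as CACGC, bases 79 to 83).
Cdkn1b: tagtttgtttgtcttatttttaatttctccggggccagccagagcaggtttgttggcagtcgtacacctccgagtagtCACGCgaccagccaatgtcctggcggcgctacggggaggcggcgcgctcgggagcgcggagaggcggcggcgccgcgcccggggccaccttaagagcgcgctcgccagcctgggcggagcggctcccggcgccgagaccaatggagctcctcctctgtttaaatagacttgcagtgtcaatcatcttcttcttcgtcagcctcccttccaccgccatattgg
No FOXO motif of the spellings searched stands in this window. Matches also stood in windows not printed. A Cdkn2a window held 4 hypoxia-inducible factor cores and 1 E2F motif. For Ccnd3, 1 window held a FOXO motif and another held a hypoxia-inducible factor core. Neither gene passed in the mean hypoxia effect (0.07 and 0.15 log2 units), although Ccnd3 passed there under 3 of 10 alternatives and rose in the chamber set.

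Transcripts of Cdkn2a encode the CDK4 and CDK6 inhibitor p16INK4a and the p53 regulator p19ARF. The signal of its probe set varied little, and its mean lay at the 50.4 percentile of all single-gene probe sets. The annotation does not say which transcript this probe set measures. Whether the signal comes from Cdkn2a transcripts at all was not tested. The 21 arrays ranged from 5.30 to 5.87, and in experiments 1 and 2 hypoxia arrays overlapped their controls. The mean hypoxia difference was 0.07 ± 0.08 log2 units (adjusted p = 0.627, 95% interval -0.10 to 0.24). In experiment 3 it gave 5.48 and 5.34 in the controls, 5.83 and 5.66 with 100 µM CoCl2 and 5.87 and 5.65 with 200 µM, with no overlap between either dose and the controls. Neither dose passed alone (adjusted p = 0.0976 and 0.0802). The mean of both doses was 0.34 ± 0.13 higher (adjusted p = 0.0462), a call that was lost without any 1 of 14 of the 21 arrays, with adjusted p-values up to 0.238 without control 2 of experiment 3, and under 4 of 10 alternatives, over which adjusted p-values ran from 0.0352 to 0.145.

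Rb1, which encodes the retinoblastoma protein, was higher in the mean of the hypoxia sets and did not pass in any single set, although its lead probe set did in the chamber set and experiment 2 with array weights and with only the compared sets in the fit (adjusted p from 0.00148 to 0.0188). The mean signal of the lead probe set was low, at the 24.3 percentile of all single-gene probe sets, and that of the second one lay at 11.9. The lead probe set gave 3.99, 3.92 and 4.25 in chamber hypoxia, against 3.52 and 3.75 in the chamber controls. Hypoxia in experiment 1 gave 3.86, 4.06 and 4.14, against 3.71 and 3.71 in the controls. Hypoxia in experiment 2 gave 3.91, 4.06 and 4.01, against 3.65 and 3.49 in the controls. All hypoxia arrays lay above their own controls. In experiment 3 Rb1 gave 4.32 and 4.20 in the controls, 4.01 and 4.82 with 100 µM CoCl2 and 4.40 and 4.44 with 200 µM, so that its controls there were higher than those of the other sets.

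The mean hypoxia effect on Rb1 was 0.38 ± 0.10 log2 units (1.30-fold, adjusted p = 0.0037), with differences of 0.42, 0.31 and 0.42 in the chamber set and experiments 1 and 2 (adjusted p from 0.0836 to 0.248). The second probe set rose by 0.46 ± 0.14 (adjusted p = 0.0168), a call lost without chamber control 1 (0.41, adjusted p = 0.0642) or control 1 of experiment 2 (0.41, adjusted p = 0.0598). With replicate number as a block neither Rb1 probe set passed (adjusted p = 0.0580 and 0.105). CoCl2 gave 0.16 ± 0.16 for the lead probe set (adjusted p = 0.423) and 0.45 ± 0.23 for the second one (adjusted p = 0.119). Without array 1 at 100 µM these were 0.36 (adjusted p = 0.0216) and 0.75 (0.00162), both past the threshold, and without array 2 at that dose they were -0.0482 (0.742) and 0.14 (0.491). The second one also passed without array 2 at 200 µM (0.61, 0.0441).

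**Figure D3:**
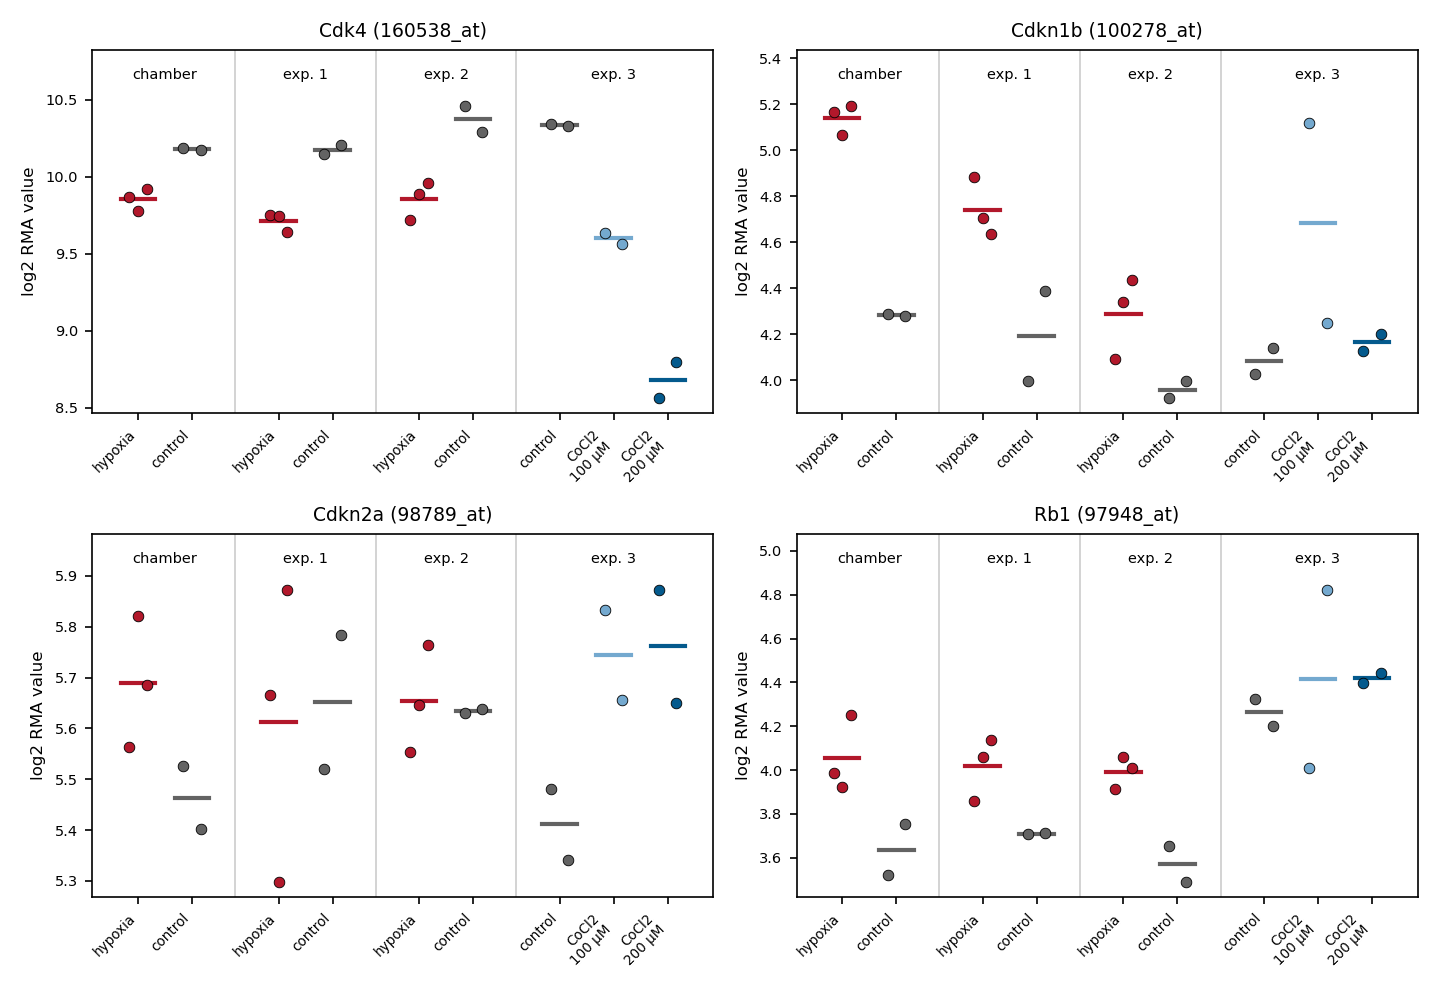
Signal of the lead probe sets of Cdk4, Cdkn1b, Cdkn2a and Rb1 (log2 RMA value, vertical axes on separate scales that do not start at 0) on each array, by set and group; points are arrays and short lines are group means. Cdk4 lies at 8.56 and 8.80 in the 200 µM CoCl2 arrays and between 10.15 and 10.46 in the 8 controls.

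Counted over the 12 member probe sets, 5 rose and 2 fell in the mean hypoxia effect, a comparison in which 28.0% of all single-gene probe sets were called, 11.2% higher and 16.8% lower. Those that rose were the probe sets of Ccng2, Cdkn1b (both) and Rb1 (both), and those that fell were the lead probe sets of Ccnd1 and Cdk4. In the chamber set 4 rose and 1 fell, where 19.1% of all were called (6.56% higher and 12.5% lower). Experiment 1 had 2 that rose and 2 that fell, with 15.9% of all called (6.76% higher and 9.18% lower). In experiment 2 only Ccng2 rose and only the lead Cdk4 probe set fell, with 13.0% of all called (6.42% higher and 6.58% lower). At 100 µM CoCl2 2 rose and 4 fell, with 34.4% of all called (16.3% higher and 18.0% lower). At 200 µM 1 rose and 5 fell, with 37.9% of all called (18.2% higher and 19.7% lower). In the mean of both doses 2 rose and 4 fell, with 41.9% of all called (21.6% higher and 20.3% lower). The median difference of the 12 probe sets was 0.19 log2 units in the mean hypoxia effect and -0.06 in the mean CoCl2 effect, against 0.01 and 0.13 over all probe sets.

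Direct tests of the differences between treatments gave the following counts. At 200 µM CoCl2, 2 of the 12 probe sets were lower than at 100 µM (14.4% of all called, and 7.54% in this direction). These were Ccng2, which rose less at the higher dose (2.28 against 2.96), and the lead Cdk4 probe set, which fell further. Between the chamber and the incubator, Ccnd2 alone passed, higher in the chamber (1.20% of all called, and 0.175% in this direction), beside the lead Ccnd1 probe set with the adjusted p of 0.0591 given above. Between experiments 1 and 2 none passed in limma, with 3 at an unadjusted p under 0.05, Ccng2, Ccnd3 and the lead Ccnd1 probe set (0.203% of all called). Array weights, another setting of limma, gave 2. Between CoCl2 and hypoxia, 6 passed, all lower with CoCl2: Ccng2, the lead Ccnd1 probe set, Ccnd2, Ccnd3 and both Cdk4 probe sets (21.8% of all called, and 13.8% in this direction). In these the 2 treatments have no control arrays in common, but CoCl2 was given in 1 experiment only, so agent and experiment cannot be told apart.

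**Figure D4:**
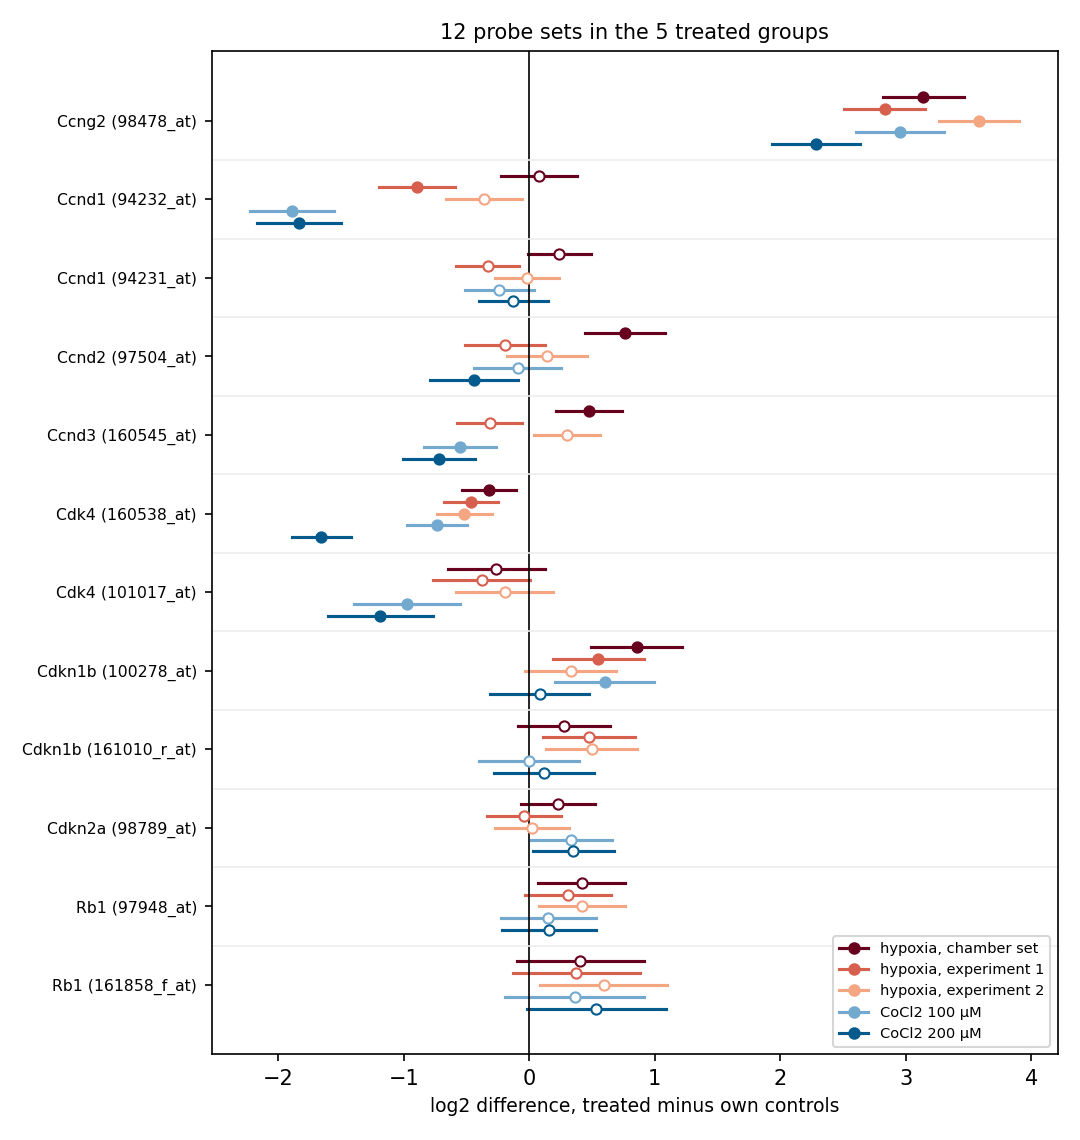
Log2 difference (horizontal axis, treated minus own controls) of the 12 member probe sets in the 5 treated groups; points are estimates, filled where the adjusted p was under 0.05, and bars are 95% intervals. Ccng2 stands at 2.28 to 3.58 in all 5 groups, and the lead probe sets of Ccnd1 and Cdk4 have their lowest values with CoCl2.

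Other genes of the same pathway were taken from 8 lists with 47 genes, of which 38 were measured by a single-gene probe set. By lead probe set, 8 rose, 22 fell and 8 did not pass in the mean hypoxia effect (30.7% of all 8251 genes called, 11.9% higher and 18.8% lower). In the mean CoCl2 effect 3 rose, 23 fell and 12 did not pass (44.7% of all genes called, 22.0% higher and 22.7% lower). The median over all genes was 0.01 log2 units for hypoxia and 0.12 for CoCl2.

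Among 5 further CDK inhibitors, 3 rose and 1 fell in hypoxia (median 0.26), and 1 rose and 1 fell with CoCl2 (median 0.19). Cdkn1a, which encodes the p53-responsive inhibitor p21, rose by 1.85 ± 0.16 in hypoxia and by 1.68 ± 0.26 with CoCl2 (adjusted p = 7.59e-09 and 2.22e-05). Cdkn2c, which encodes the INK4 inhibitor p18, fell in both treatments (-0.54 ± 0.07 in hypoxia and -0.65 ± 0.11 with CoCl2). Cdkn2d rose by 0.28 ± 0.08 in the mean hypoxia effect and gave 0.19 with CoCl2 (adjusted p = 0.240). Its sign differed between the hypoxia sets, with 0.40 for the chamber, -0.11 in experiment 1 and 0.54 in experiment 2. The other Cdkn1a probe set rose by 1.67 and by 1.91. The FOXO factor gene Foxo3 rose by 1.11 ± 0.07 in hypoxia and by 0.76 ± 0.11 in the mean of both CoCl2 doses (adjusted p = 5.26e-11 and 1.30e-05). By dose, Foxo3 gave 1.30 at 100 µM and 0.22 at 200 µM, where it did not pass. Foxo4 passed in neither mean effect (0.05 and 0.17). Of the relatives of cyclin G2, Ccni rose by 0.31 ± 0.06 and 0.37 ± 0.10 in the 2 mean effects, and Ccng1 did not pass (-0.29 in both). The lead Ccni probe set gave 0.59 at 100 µM CoCl2 and 0.16 at 200 µM, where it did not pass. The other 2 Ccni probe sets did not pass (0.10 and 0.22 in hypoxia, 0.05 and -0.08 with CoCl2).

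Most measured genes of the next step of the cycle fell. Of 13 measured S phase genes regulated by E2F, 12 fell and none rose in each treatment, with a median of -0.77 log2 units in hypoxia and -2.06 with CoCl2. Rrm2, a subunit of ribonucleotide reductase, fell by 1.64 ± 0.12 in hypoxia and fell by 3.28 ± 0.19 with CoCl2. Cdc6, which licenses replication origins, fell by 1.62 ± 0.08 in hypoxia and fell by 3.74 ± 0.13 with CoCl2, and the replicative helicase gene Mcm2 fell by 0.99 ± 0.07 in hypoxia and fell by 2.52 ± 0.11 with CoCl2. Mcm3, another subunit of that helicase, fell by 0.91 ± 0.07 in hypoxia and fell by 2.57 ± 0.11 with CoCl2, and its other probe set gave -0.95 and -3.01. Of 5 genes in the list of E and A cyclins with Cdk2 and Cdc25a, 4 fell in each treatment (median -0.30 and -0.94). Ccna2, the S phase cyclin A2, fell by 0.39 ± 0.07 in hypoxia and fell by 1.83 ± 0.11 with CoCl2. The lead Cdk2 probe set fell by 0.30 ± 0.09 in hypoxia and fell by 2.92 ± 0.14 with CoCl2, whereas the other Cdk2 probe set did not pass (-0.15 and -0.25). Cdc25a, a phosphatase that activates CDK2, fell by 0.82 ± 0.07 in hypoxia and fell by 0.94 ± 0.11 with CoCl2 on its lead probe set, while its other probe set gave -0.00 and 0.18 and did not pass.

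Of 6 measured Rb relatives, E2F and DP factors (10 listed), 2 rose and 3 fell in hypoxia (median -0.18), and none rose and 4 fell with CoCl2 (median -0.45). Rbl1, which encodes the Rb relative p107, fell by 0.56 ± 0.07 in hypoxia and fell by 2.88 ± 0.12 with CoCl2. Tfdp1, an E2F partner, gave -1.01 ± 0.13 and -2.50 ± 0.22 on its lead probe set and -0.95 ± 0.10 and -2.31 ± 0.16 on another, while the remaining one gave -0.38 (adjusted p = 0.00646) and 0.16 (0.436). E2f5, an E2F factor, rose by 0.54 ± 0.07 in hypoxia and fell by 0.41 ± 0.12 with CoCl2 (adjusted p = 7.06e-06 and 0.00977). E2f1 fell in both treatments (-0.30 ± 0.06 in hypoxia and -0.49 ± 0.10 with CoCl2), as did its other probe set (-0.50 and -0.51). Of 3 measured genes of the ubiquitin ligase that degrades p27, 2 fell in each treatment, Cks1b (-0.72 ± 0.10 in hypoxia and -1.61 ± 0.16 with CoCl2) and Skp1 (-0.50 ± 0.11 and -0.59 ± 0.17). Cul1 did not pass (0.11 and -0.00). Of the CDK-activating kinase, Mnat1 rose by 0.50 ± 0.08 in the mean hypoxia effect on its lead probe set (0.02 on the other) and gave 0.23 with CoCl2. By set, the lead Mnat1 probe set gave 0.03 with the chamber, which did not pass, and 0.81 and 0.65 in experiments 1 and 2. The chamber effect lay 0.70 below the mean incubator effect, a difference that passed. Cdk7 did not pass (0.02 and 0.09).

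**Figure D5:**
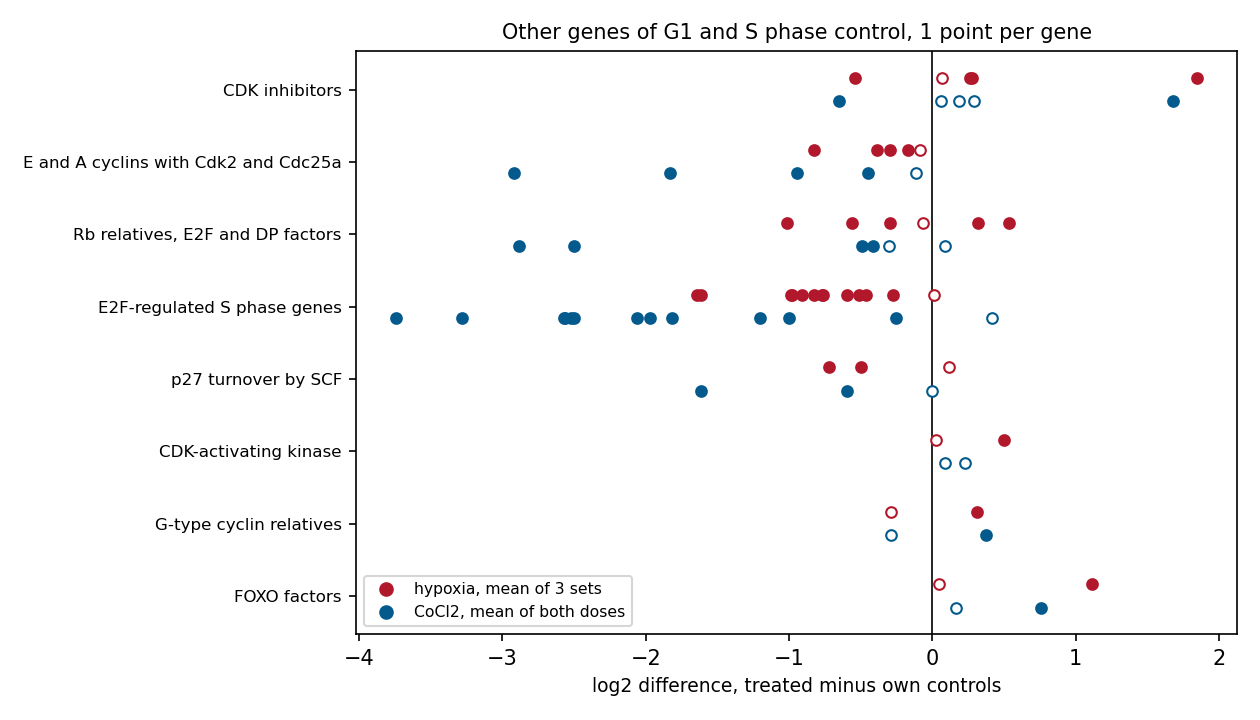
Log2 difference (horizontal axis) of the 38 other measured pathway genes, 1 point per gene (lead probe set), in the mean hypoxia effect (red) and the mean CoCl2 effect (blue), by list; filled points had an adjusted p under 0.05. Of the 13 S phase genes regulated by E2F, 12 fell in each treatment, down to -1.64 in hypoxia and -3.74 with CoCl2.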

How the data were processed

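RNA of 21 B16-F10 samples was hybridised to 1 Affymetrix U74Av2 array each. The authors deposited log2 values made with RMA, 1 per probe set and array; GCOS 1.2 and RMA are named by the submitters' processing notes. The sources used here do not give the RMA version or the probe definition. The deposited values ran from 1.37 to 13.3, with array medians of 5.44 to 5.53, and were used without further scaling. Of 12488 probe sets, 10833 with 1 gene symbol in the platform annotation were kept (10817 matched to current symbols by Entrez identifier), 396 with several genes and 1193 without a name were left out of the tests, as were 66 controls.

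Group means were estimated jointly from the 21 arrays in limma 3.58.1, run under R 4.3.3 (12 residual degrees of freedom, two-sided tests, Benjamini-Hochberg adjustment over all 10833 probe sets, threshold 0.05). The fit was also run on simulated data in which only the hypoxia groups held changes. Each simulated probe set had the same spread in all groups, so the wider spread of the CoCl2 replicates was not covered. The hypoxia effect is the equal-weight mean of 3 within-set differences. Comparisons at the 2 doses share their controls. For a gene with several probe sets, the one with the highest mean leads; all member probe sets are given, and of each pathway list up to 3 genes per treatment with the largest change are named. Members, lists and motifs were chosen with earlier results of these data known. Alternatives concerned scaling, dim probe sets, probe sets tested, variance model, array weights, replicate block, arrays in the fit, RNA quality and single arrays. The mean of both doses and the list counts under alternatives were added after the data were seen.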

Additional observations from a re-analysis of the deposited data

Results flagged for a closer look

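The effects of CoCl2 and of hypoxia, each against its own controls, differed for 6 of the 12 member probe sets by a test of the difference itself (limma, adjusted over all probe sets), and each was lower with CoCl2. Of all single-gene probe sets 21.8% passed this test, 13.8% being lower with CoCl2. For the lead Ccnd1 probe set the mean CoCl2 effect minus the mean hypoxia effect was -1.47 log2 units (adjusted p = 8.83e-07). Ccnd3 gave -0.79, the lead Cdk4 probe set -0.76 and the second Cdk4 probe set -0.80 (adjusted p = 0.00028, 4.72e-05 and 0.00734), the last being lost without control 1 of experiment 3 (-0.68, adjusted p = 0.0947). Ccng2 gave -0.56 (adjusted p = 0.0217), a call lost without control 1 (-0.62, adjusted p = 0.0660) or control 2 (-0.51, 0.116) of experiment 3, array 1 at 100 µM (-0.44, 0.0576) or array 2 at 200 µM (-0.46, 0.0536), and with the replicate block (0.101). Ccnd2 gave -0.50 (adjusted p = 0.0397), a call lost without any 1 of 10 arrays, with quantile normalisation (-0.40, 0.123), with array weights (-0.49, 0.136) and with the replicate block (-0.49, 0.0537). The arrays of experiment 3 also had the highest Actb 3′ minus 5′ signals and the CoCl2 arrays the lowest melanocyte marker signals. Their part in these differences was not tested, beyond the fit with the Actb value as a covariate.

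The hypoxia effect on Ccnd2 in the chamber set exceeded the mean effect in the incubator experiments by 0.79 log2 units (limma, adjusted p = 0.0405). This difference lost its call without any 1 of 12 arrays. All 3 chamber hypoxia arrays lay above their controls, but so did all hypoxia arrays of experiment 2, so that this order does not separate the devices.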

How the results depend on the processing

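Of the calls given in the report, those for Ccng2 in all 5 treated groups, for the lead Ccnd1 probe set in the mean hypoxia effect, in experiment 1, at both CoCl2 doses and between CoCl2 and hypoxia, and for the lead Cdk4 probe set in the mean hypoxia effect, in experiment 2, at both CoCl2 doses, between the doses and between CoCl2 and hypoxia kept their sign and their side of the threshold under the 9 or 10 alternatives that could be run for each and without each array in turn. So did Ccnd2 and the lead Cdkn1b probe set in the chamber set, the lead Cdkn1b probe set in the mean hypoxia effect, and Ccnd3 and the second Cdk4 probe set at 200 µM. Calls lost elsewhere are given with the genes in the report. Of 132 member differences, 87 were not called, and 36 of these gained a call under an alternative (22) or without an array (25). Median centring, quantile normalisation and the deposited scale put the median of all probe sets within 0.1 log2 units of each other in each comparison.

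Residuals of arrays with the same replicate number in 1 set correlated between -0.354 and 0.316 over 12 pairs. In experiment 3, where each group has 2 arrays, residuals within a group mirror each other, so its pairs repeat the same values. Arrays with different numbers were not compared, so these values do not settle whether the numbers pair the arrays. With replicate number as a block, the replicate block fit, 4 of 12 member probe sets were called in the mean hypoxia effect (7 without the block), 3 in the chamber set (5), 2 in experiment 1 (4) and 0 between chamber and incubator (1). The cause of this and the following changes was not tested. The share of all probe sets called is not given for these settings or with single arrays left out. The counts are therefore not a result about the members alone. With array weights 11 were called in the chamber set, 6 in experiment 2 (2 as reported), 1 between the doses (2), 4 between chamber and incubator and 2 between experiments 1 and 2 (0). With only the arrays of the compared sets in the fit, 9 were called in the chamber set, 6 in experiment 2, 3 at 100 µM CoCl2 (6), 1 between the doses and 3 between chamber and incubator. With the Actb covariate 4 were called in experiment 2, 3 at 100 µM, 1 between the doses and 2 between chamber and incubator. Between chamber and incubator quantile normalisation gave 3, leaving out probe sets under the 40th percentile gave 2 of 8 members left, and 1 probe set per gene gave 2.

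Without each array in turn, the number called ran from 6 to 9 in the mean hypoxia effect, 3 to 6 in the chamber set (3 without either chamber control), 3 to 7 in experiment 1 and 2 to 5 in experiment 2 (7 and 5 without either 100 µM array), 5 to 7 at each CoCl2 dose and in their mean, 1 to 3 between the doses (1 without array 2 at 200 µM), 0 to 3 between chamber and incubator, 0 to 0 between experiments 1 and 2 and 3 to 8 between CoCl2 and hypoxia (3 without control 1 of experiment 3). Groups left with 1 array were assumed to vary like the others.

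Signs turned only in differences that were not called. For Cdkn2a the experiment 1 difference was 0.0007 after median centring and 0.0032 with array weights, and the experiment 2 difference was -0.0347 with the block. Quantile normalisation gave 0.0685 for Ccnd2 at 100 µM and -0.0063 for the lead Cdkn1b probe set at 200 µM. The Actb covariate gave -0.30 for the lead Rb1 probe set between the doses and, between experiments 1 and 2, -0.0001 for the lead Cdk4 probe set and 0.0892 for the second Cdkn1b probe set (0.0163 after centring). Between chamber and incubator, centring gave -0.0416 for the second Cdk4 probe set and -0.0163 for the lead Rb1 probe set, which quantile normalisation put at -0.0809 and the block at -0.0136. The second Rb1 probe set was at 0.0199 between CoCl2 and hypoxia with the block. Leaving out single arrays turned the sign of 27 differences, 9 of them named above and 18 further ones. For the chamber set effect the lowest and highest were -0.0395 and 0.15 for the lead Ccnd1 probe set. For the experiment 1 effect the lowest and highest were -0.17 and 0.12 for Cdkn2a. For the experiment 2 effect the lowest and highest were -0.0719 and 0.0315 for the second Ccnd1 probe set and -0.0347 and 0.0713 for Cdkn2a. For the 100 µM effect the lowest and highest were -0.21 and 0.0265 for Ccnd2, -0.26 and 0.26 for the second Cdkn1b probe set, -0.25 and 0.56 for the lead Rb1 probe set and -0.25 and 0.97 for the second Rb1 probe set. For the 200 µM effect the lowest and highest were -0.21 and 0.45 for the second Cdkn1b probe set. For the mean CoCl2 effect the lowest and highest were -0.11 and 0.22 for the second Cdkn1b probe set and -0.0482 and 0.36 for the lead Rb1 probe set. For the step from 100 to 200 µM the lowest and highest were -0.18 and 0.29 for the lead Ccnd1 probe set, -0.0376 and 0.26 for the second Ccnd1 probe set, -0.42 and 0.0776 for Ccnd3, -0.71 and 0.28 for the second Cdk4 probe set, -0.21 and 0.45 for the second Cdkn1b probe set, -0.0944 and 0.13 for Cdkn2a, -0.40 and 0.41 for the lead Rb1 probe set and -0.44 and 0.78 for the second Rb1 probe set. For the chamber effect minus the incubator effect the lowest and highest were -0.17 and 0.0313 for Ccng2, -0.0337 and 0.0854 for the second Cdk4 probe set, -0.0638 and 0.17 for the lead Rb1 probe set and -0.22 and 0.0671 for the second Rb1 probe set. For the experiment 1 effect minus the experiment 2 effect the lowest and highest were -0.0299 and 0.14 for the lead Cdk4 probe set, -0.17 and 0.13 for the second Cdkn1b probe set and -0.19 and 0.0964 for Cdkn2a. For the CoCl2 effect minus the hypoxia effect the lowest and highest were -0.32 and 0.30 for the second Rb1 probe set. Signals of 2 or 3 arrays per group set these limits, and no detection calls were used.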
